A study of Caenorhabditis elegans with 2 samples.

Results

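The genes described here encode molecular chaperones of Caenorhabditis elegans, the proteins that fold, refold and sort other proteins. They comprise all protein-coding genes whose WBcel235 symbol starts with hsp-, dnj- or cct-, which gave 59 genes of 19973 nuclear coding genes. Of these, 22 are hsp genes, 29 are dnj genes and 8 are cct genes. Binding was measured by ChIP-seq in whole L3 hermaphrodites, collected 40 hours after they had been synchronized as L1 larvae. The animals were of strain OP56 (unc-119(ed3) III; wgIs56), whose transgene expresses the intestinal GATA factor ELT-2 fused at its C-terminus to GFP and FLAG, and chromatin was precipitated with an antibody against GFP. Chromatin came from whole animals, so the cell type behind a peak cannot be told apart. The labels do not say how much tagged ELT-2 the animals made, nor what the endogenous gene contributed. Both samples, biological replicates 1 and 2, form 1 group, so there was no comparison between conditions and no test over samples.

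ELT-2 keeps the genes of the differentiated intestine active and recognises the site TGATAA. HSP70 proteins bind unfolded chains in cycles driven by ATP, J proteins hand them their clients, and HSP110 resets the cycle by nucleotide exchange. HSP90 matures signalling proteins, and the chaperonins, CCT in the cytosol and HSP60 in mitochondria, enclose a client in a barrel. Small HSPs hold denatured proteins until they can be refolded, and several are nearly silent without heat. The heat shock factor HSF-1 acts through heat shock elements, repeats of GAA and its complement.

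A gene was called bound if a summit of the peaks passing the authors' irreproducible discovery rate filter (IDR, which compares the ranks of peaks between replicates) lay in its promoter window. The window spans 1000 bp before and 500 bp after each annotated transcript start. This IDR-passing list has 9198 peaks, 9181 of them nuclear. Signal is the authors' value per peak against a control, and is comparable only within 1 list. It ran from 74.97 to 9719 in this list, with a median of 203.9. Both replicates' own lists, of 28033 and 30000 peaks, include background, and their median signals were 19.6 and 19.96. The number of sequenced reads is unknown. Coordinates are on ce11, counted from 1.

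Sequences at 6 summits show chaperone promoters without and with the ELT-2 site. At the summits of hsp-3 (the strongest of all members), dnj-9 and dnj-14 no TGATAA was found within 100 bp (the middle 101 bases are printed). It was present at the summits of hsp-1 and hsp-17 and at the weaker, intronic summit of hsp-60. The stronger summit of hsp-60 had no TGATAA within 100 bp. All are plus-strand WBcel235 sequence from RefSeq, 5′ to 3′, with TGATAA or its reverse complement TTATCA in capitals.
hsp-3, chrX:6092138-6092238: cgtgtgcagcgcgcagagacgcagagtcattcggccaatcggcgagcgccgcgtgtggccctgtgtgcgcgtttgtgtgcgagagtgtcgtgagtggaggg
dnj-9, chrII:4851780-4851880: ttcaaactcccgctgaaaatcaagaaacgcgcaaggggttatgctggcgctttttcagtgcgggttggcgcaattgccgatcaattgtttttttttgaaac
dnj-14, chrX:4712015-4712115: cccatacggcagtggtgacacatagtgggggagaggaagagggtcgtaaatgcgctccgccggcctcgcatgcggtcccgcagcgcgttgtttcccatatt
hsp-1, chrIV:17278483-17278683: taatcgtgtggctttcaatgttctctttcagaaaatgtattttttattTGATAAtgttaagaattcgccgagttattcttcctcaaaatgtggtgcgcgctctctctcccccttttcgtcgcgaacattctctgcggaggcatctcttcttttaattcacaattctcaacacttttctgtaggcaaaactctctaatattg
hsp-60, chrIII:1622467-1622667: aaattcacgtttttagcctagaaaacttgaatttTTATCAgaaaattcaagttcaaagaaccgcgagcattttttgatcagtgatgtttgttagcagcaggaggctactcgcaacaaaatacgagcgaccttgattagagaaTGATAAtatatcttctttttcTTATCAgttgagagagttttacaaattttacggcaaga
hsp-17, chrV:8386294-8386394: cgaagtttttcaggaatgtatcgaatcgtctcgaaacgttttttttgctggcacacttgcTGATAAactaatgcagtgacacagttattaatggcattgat

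Chaperone genes had a summit in the promoter window in 33 of 59 cases, and the share varied by class. This was 55.9% (95% exact interval 42.4 to 68.8), against 26.7% of all coding genes (5323 of 19973). When each summit counted only for the gene with the nearest start, 21 of 59 members were bound (35.6%), against 22.1% of all coding genes. Among genes whose window overlaps no other it was 7 of 20 (35%), against 21.9%, and with only the peaks at or above the list's median signal it was 16 of 59 (27.1%), against 14.4%. All 6 HSP70 and HSP110 genes were bound, as were 8 of 9 chaperonin genes, 15 of 29 J protein genes, 1 of 2 HSP90 genes and 3 of 13 small HSP genes. By the nearest gene only, chaperonins stood at 3 of 9 (33.3%) and HSP70 and HSP110 genes at 4 of 6. The small HSPs were at 23.1%, or at 33.3% (3 of 9) without 4 hsp-16 genes in repeated sequence whose binding is undetermined, and the other classes together were at 65.2% (30 of 46). The classes were assigned by hand from symbols and known roles, and genes are not replicates, so the classes were not tested against each other. The 33 bound genes carried 37 distinct summits.

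**Figure D1:**
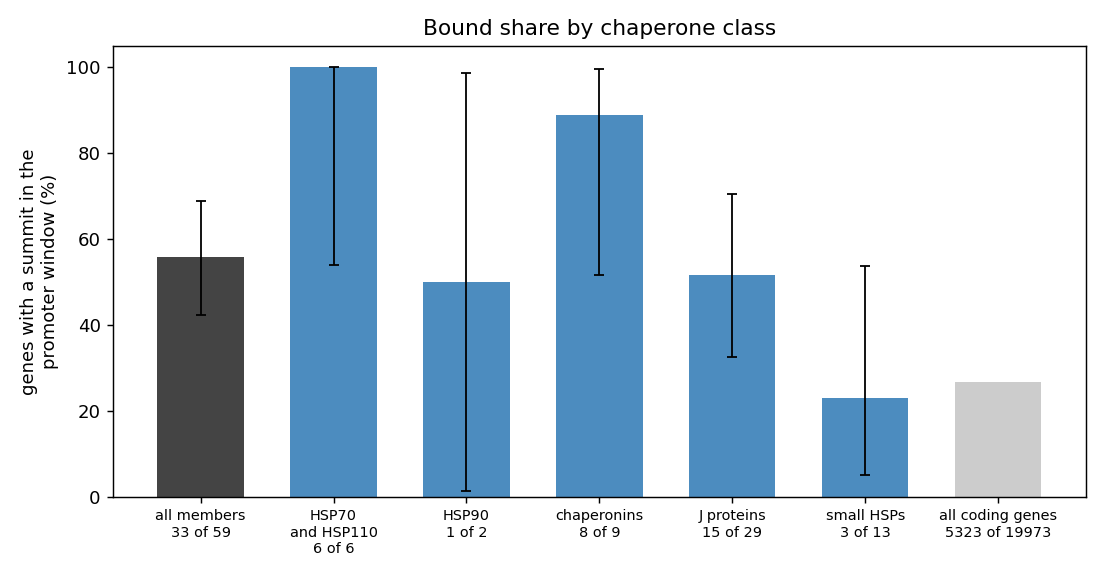
Share of genes with an IDR-passing summit in the promoter window, in percent, for the 59 chaperone genes, for each class and for all coding genes, with counts under the bars and 95% exact binomial intervals (counting error only) as whiskers on the chaperone bars. The HSP70 and HSP110 genes (6 of 6) and the chaperonins (8 of 9) stand highest, and the small HSPs are drawn as 3 of 13, with 4 undetermined genes counted as unbound, beside 26.7% of all coding genes.

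Sorted by compartment, 18 of 24 cytosolic members were bound (75%), 5 of 6 of the endoplasmic reticulum (ER; 83.3%) and 3 of 5 mitochondrial members (60%). Compartments too were assigned by hand, and only where held to be certain, so these shares depend on that choice. All coding genes stood at 26.7%. By the nearest gene only, the order was different: 8 of 24 cytosolic members (33.3%), 5 of 6 ER members (83.3%) and 2 of 5 mitochondrial members (40%) were bound. By that rule all coding genes stood at 22.1%. The remaining 24 members, all J proteins or small HSPs with no compartment assigned here, were bound in 7 cases (29.2%), near the 26.7% of all coding genes. The hsp-16 genes, 6 in all, are counted as cytosolic; without the 4 of them that lie in repeated sequence, 18 of 20 cytosolic members were bound.

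Being bound often did not mean being bound strongly. The strongest promoter summit of a bound chaperone gene had a median signal of 177.5, against 222.1 for all 5323 bound coding genes. Signals of the members ran from 77.6 (cct-2) to 1167 (hsp-3), and 16 of the 33 reached the list's median. Each of the 37 summits had a match within 100 bp in the lists of both replicates, as 96.8% of all 5297 promoter summits did. The matched summits had median signals of 67.3 in replicate 1 and 112.2 in replicate 2, against 87.01 and 122 for all promoter summits with a match. In replicate 1, 5 of the 37 lay below the median of that replicate's own list, which includes background. They belong to hsp-70, cct-4, dnj-1, dnj-22 and the weaker summit of dnj-7. The same share over all promoter summits is not given here, so the count is not shown to be particular to chaperone summits.

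**Figure D2:**
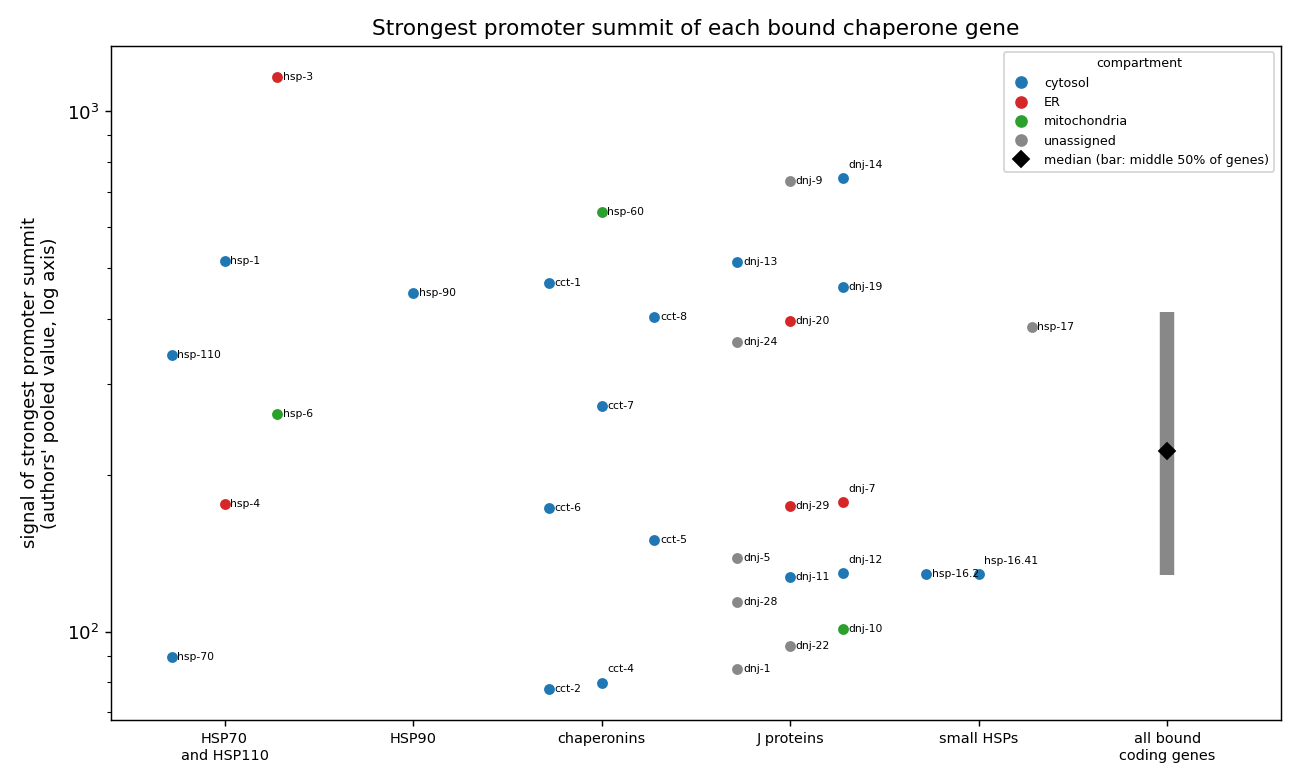
Signal of the strongest promoter summit (authors' pooled value, log axis) of each of the 33 bound chaperone genes, by class, coloured by compartment, with the median (222.1) and middle 50% of all bound coding genes at the right. Members spread from 77.6 for cct-2 to 1167 for hsp-3, and each class with over 3 bound genes spans both sides of 222.1.

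Among the HSP70 genes, hsp-3 and hsp-1, known as constitutive, had stronger summits than their stress-inducible relatives hsp-4 and hsp-70. The ER chaperone BiP is encoded by hsp-3 (WBGene00002007) and hsp-4 (WBGene00002008). The hsp-3 summit, at chromosome X 6092188, 64 bp upstream of a start, had a signal of 1167 in the pooled list, 512 in replicate 1 and 655 in replicate 2. It ranked 251 in the IDR-passing list, 258 in replicate 1 and 252 in replicate 2. The hsp-4 summit, at chromosome II 7352771, 126 bp upstream of the start of this gene of the unfolded protein response, had 176 in the pooled list, 67.3 in replicate 1 and 111.7 in replicate 2. In both replicates the hsp-3 signal was thus far above that of hsp-4.

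The cytosolic pair showed the same order. For hsp-1, the constitutive HSP70, the summit at chromosome IV 17278583 lay 376 bp upstream, with 516 in the pooled list, 274 in replicate 1 and 244.5 in replicate 2. For hsp-70, which is induced by heat, the summit at chromosome I 9322577 lay 58 bp upstream, inside an intron of uggt-2, with 89.6 in the pooled list, 18.9 in replicate 1 and 68.3 in replicate 2. Its ranks were 14498 in replicate 1 and 7127 in replicate 2, so this call rests on replicate 2: by the 9198 strongest peaks of replicate 1 alone, hsp-70 was not bound. That list gave 29 of 59 members bound, against 25.7% of all coding genes, and the same number of peaks from replicate 2 alone gave 32 of 59, against 26.5%. The HSP110 gene hsp-110 had 340 in the pooled list (150 and 187 in replicates 1 and 2), at a summit nearer to the divergent proteasome gene rpn-3. Mitochondrial hsp-6 had 262 (90.2 and 186 in replicates 1 and 2), at a summit nearer to C37H5.5.

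HSP90 itself was bound and its mitochondrial relative was not. The cytosolic gene hsp-90 had 2 summits in its window. The stronger, at chromosome V 14685782 in an intron of hsp-90, had 447 in the pooled list, 196 in replicate 1 and 256 in replicate 2, and the nearest start was that of C47E8.4. The weaker one, 48 bp upstream of a start of hsp-90, had 82.7. No IDR-passing or pooled summit lay in the window of hsp-75, the TRAP1 gene, and its nearest IDR-passing summit was 7637 bp away.

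Of the 8 subunit genes of the CCT ring, 7 were bound, all at promoters shared with a neighbour. Signals in the pooled list were 467 for cct-1, 402 for cct-8, 271 for cct-7, 173 for cct-6, 150 for cct-5, 79.8 for cct-4 and 77.6 for cct-2. In replicate 1 the same genes ran from 18.4 (cct-4) to 218 (cct-1), and in replicate 2 from 44.6 (cct-2) to 244.2 (cct-1). The cct-1 summit, at chromosome II 8185197, lay 246 bp upstream of cct-1. The cct-8 summit, at chromosome IV 1094331, lay 411 bp upstream of cct-8 and had 190.6 in replicate 1 and 211 in replicate 2. All 7 summits also lay in the window of a second coding gene, and for cct-1, cct-5, cct-6, cct-7 and cct-8 the nearest start was that of the neighbour (mig-5, F25F2.1, alh-9, T10B5.4 and Y55F3AR.2). By the strongest peaks of 1 replicate alone, cct-2 was not bound in replicate 2 and cct-4 was not bound in replicate 1. The remaining subunit gene, cct-3, had no summit in the pooled list in its window, and its nearest IDR-passing summit was 29286 bp upstream.

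The mitochondrial chaperonin gene hsp-60 had the strongest chaperonin signal. Its first summit, at chromosome III 1619122, had 640 in the pooled list, 288 in replicate 1 and 352 in replicate 2. It lay 620 bp upstream of a start of hsp-60 and 193 bp upstream of the start of Y22D7AL.10, which encodes its partner co-chaperonin. The second, at chromosome III 1622567, lay in an intron of hsp-60, 561 bp upstream of another start of the gene. It had 380 in the pooled list, 159.9 in replicate 1 and 217 in replicate 2, and 3 TGATAA sites within 100 bp. In a narrower window, 500 bp before to 200 bp after a start, hsp-60 was not called bound; there 30 of 59 members were bound, against 21.3% of all coding genes.

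J protein genes were bound in 15 of 29 cases (51.7%), against 26.7% of all coding genes. By the nearest gene only it was 11 of 29 (37.9%), against 22.1%. Of the 6 counted as cytosolic, 5 were bound: dnj-14, the cysteine string protein of synaptic vesicles (746 in the pooled list), dnj-13, a DNAJB1-type partner of HSP70 (514), dnj-19 and dnj-12, both of the DNAJA type (459.7 and 129.7), and dnj-11, a ribosome-associated J protein (127). The auxilin gene dnj-25 was not. The summits counted to dnj-19 and dnj-11 were nearer to nhr-47 and F38A5.2, and by the nearest gene only 2 of these 6 genes, dnj-12 and dnj-13, were bound. For dnj-14 the signals were 276 in replicate 1 and 468 in replicate 2, but the nearest start was that of glit-1, on the other strand. The dnj-13 summit had 234 in replicate 1 and 279 in replicate 2 and lay 208 bp upstream of dnj-13, inside an intron of dhgd-1.

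In the ER group of J proteins, 3 of 4 were bound. The gene dnj-20, a DNAJB11-type partner of BiP, had summits at 2 starts, with 395 and 183 in the pooled list. The stronger had 156 in replicate 1 and 238 in replicate 2. The genes dnj-7 (DNAJC3 type) and dnj-29 (SEC63, of the protein translocation channel) each had 2 summits, with 177.5 and 174.5 at the stronger. That of dnj-7, 495 bp upstream, had 62.1 in replicate 1 and 112.2 in replicate 2, and that of dnj-29, 207 bp upstream, had 77.7 in replicate 1 and 93.6 in replicate 2. No summit in any list lay in the window of dnj-27, the ERdj5 gene, whose nearest IDR-passing summit was 4532 bp upstream. In mitochondria, dnj-10 (the Tid1 homologue) was bound at 101, with 44.4 in replicate 1 and 59.1 in replicate 2, 127 bp upstream, and dnj-21, of the import motor, was not.

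Among the 17 J protein genes without an assigned compartment, 6 were bound: dnj-9 (736), dnj-24 (361), dnj-5 (138.7), dnj-28 (114), dnj-22 (94.0) and dnj-1 (84.9). That share was 35.3%, against 26.7% of all coding genes. The dnj-9 summit, at chromosome II 4851830, had 309.6 in replicate 1 and 423 in replicate 2. The dnj-24 summit lay 912 bp upstream of a start, in an intron of the gene, with 129 in replicate 1 and 237 in replicate 2. It was nearer to another start of dnj-24, 507 bp downstream of it and past the end of that start's window. The weakest pair, dnj-1 and dnj-22, had 16.6 and 19.1 in replicate 1 and 63.2 and 75.5 in replicate 2, and by replicate 1 alone neither was bound.

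Small HSP genes were bound in 3 of 13 cases (23.1%), with 4 of the other 10 undetermined. That share was near the 26.7% of all coding genes. The summit of hsp-17, at chromosome V 8386344 and 415 bp upstream, had 384 in the pooled list, 162 in replicate 1 and 220.2 in replicate 2. The heat-inducible pair hsp-16.2 and hsp-16.41, which are transcribed away from each other, shared 1 summit at chromosome V 1805153. It had 129 in the pooled list, 61.1 in replicate 1 and 59.99 in replicate 2. No IDR-passing summit lay in the windows of hsp-12.1, hsp-12.2, hsp-12.3, hsp-12.6, hsp-25 or hsp-43. When the window began 2000 bp before a start, hsp-12.2 and hsp-25 were bound as well, by summits 1276 and 1610 bp upstream, which made 35 of 59 members, against 32.1% of all coding genes. The nearest IDR-passing summit to hsp-12.3 was 714 bp downstream, past the end of its window.

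The other 4 hsp-16 genes are undetermined. They are both annotated copies each of hsp-16.1 and hsp-16.48, in an inverted duplication on chromosome V. Between 94.6% and 100% of the 50-base stretches in their windows occur again in the genome, where short reads may have no unique place. No list held a summit in these windows. Every other member lay below 50% by this measure.

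Counting the unbound, 26 members had no IDR-passing summit in the window, and 10 of them had a weaker summit there in the pooled list, which includes background. The same share over all unbound coding genes is not given here, so this count has no reference. The strongest of these weaker summits was at dnj-16, with 71.7 at rank 9437, just below the end of the list at 9198, and cct-2 at rank 9009 was the last member inside it. The dnj-16 summit had 31.4 in replicate 1 and 40.8 in replicate 2, and that of cct-2, 326 bp upstream, had 34.02 in replicate 1 and 44.6 in replicate 2, so the signals of both lay close together. Next came dnj-23 (58.5), hsp-25 (47.8) and dnj-21 (44.1). The unbound J protein genes were dnj-2, dnj-3, dnj-4, dnj-8, dnj-15, dnj-16, dnj-17, dnj-18, dnj-21, dnj-23, dnj-25, dnj-26, dnj-27 and dnj-30.

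**Figure D3:**
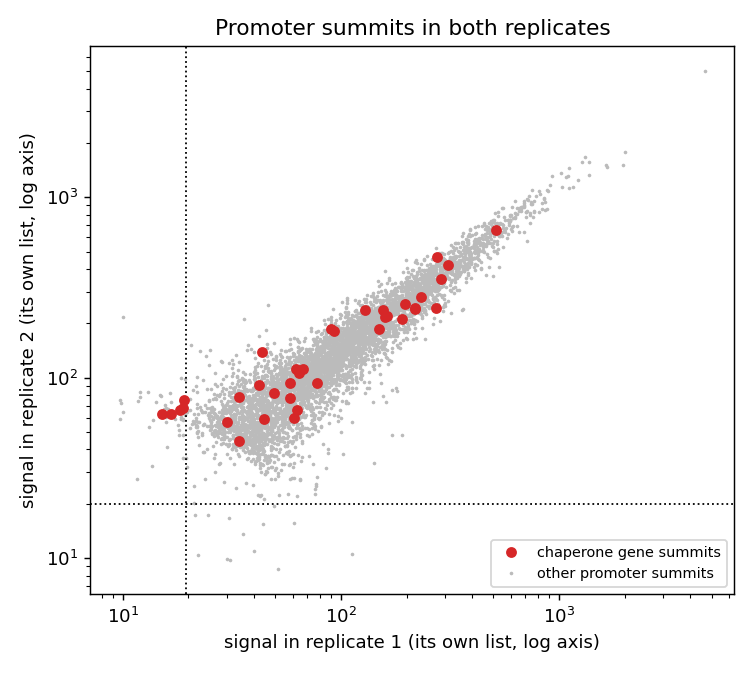
Signal in replicate 1 (horizontal) and replicate 2 (vertical), each on the scale of its own list and on log axes, for the 37 chaperone gene summits (red) and the other promoter summits (grey), with the list medians (19.6 and 19.96) as dotted lines. The red points run along the grey cloud, hsp-3 is the highest of them with 512 and 655, and 5 of the 37 lie below the replicate 1 median. The share of grey points below that median is not given.

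Few bound chaperone promoters held the ELT-2 site near the summit. TGATAA on either strand lay within 100 bp of 5 of the 37 summits (13.5%, 95% exact interval 4.54 to 28.8), against 51.3% of all 5297 promoter summits. In flanks of equal length centred 500 bp to either side, the site stood at 20.3% for the chaperone summits and 19.02% for all promoter summits. A looser site, GATA preceded by A or T and followed by A or G, which includes the first one, gave 9 of 37 (24.3%), against 66.5% of all promoter summits. These flanks held the looser site in 37.8% of cases for chaperone summits and 36.7% for all. Within 50 bp TGATAA was at 4 of 37 summits and within 200 bp at 9 of 37. The shares of all promoter summits at those distances are not given here, so these counts have no reference. The 5 summits are those of hsp-1, hsp-17 and dnj-22 with 1 site each and of dnj-24 and the intronic one of hsp-60 with 3 each.

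Split by signal, the shares with the site were lower for chaperone summits both above and below the median. Of the chaperone summits at or above the list's median signal, 4 of 17 had TGATAA (23.5%), against 64.4% of all such promoter summits. Below the median the counts were 1 of 20 (5%) and 37.8%. By compartment, none of the 8 ER summits had the site, nor did hsp-3, the strongest of them. It was present at 1 of 18 cytosolic summits, 1 of 4 mitochondrial summits and 3 of 7 summits of members with no assigned compartment. By class, it was at 1 of 6 HSP70 and HSP110 summits, 2 of 18 J protein summits, 1 of 9 chaperonin summits, 1 of 2 small HSP summits and neither of the 2 HSP90 summits. The promoter summits of the rpl and rps ribosomal protein genes, counted the same way, had TGATAA in 7 of 66 cases (10.6%).

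A heat shock element of 3 units, GAANNTTC followed directly by NNGAA, on either strand, stood at 8 of the 37 chaperone summits (21.6%), against 1.04% of all promoter summits and none of the 66 ribosomal ones. It was at the summits of hsp-110, hsp-6, hsp-70, hsp-60, dnj-12 and dnj-24, at the weaker summit of hsp-90 and at the summit shared by hsp-16.2 and hsp-16.41. Flanks were not counted for this element, so it is not shown to gather at the summits. In promoters of 300 bases, 250 before to 50 after a start, 12 of 59 members (20.3%) held it. These were 8 of 33 bound members (24.2%) and 4 of 26 unbound members (15.4%). The share was 2.53% of all coding genes and 3.01% of all bound coding genes. The 4 unbound members with the heat shock element were the hsp-16.1 and hsp-16.48 copies, whose binding is undetermined. None of the other 22 unbound members held the element. TGATAA was in the promoters of 8 of 33 bound members (24.2%), against 48.3% of all bound coding genes. It was in those of 6 of 26 unbound members, and of 35.1% of all coding genes. Among the other motifs counted, the shorter units TTCNNGAA and GAANNTTC, parts of that element, were each at 45.9% of chaperone summits, against 9.16% and 9.74% of all promoter summits. The DAF-16 site GTAAACA was at 5.41% of chaperone summits and 5.38% of all promoter summits. The site TGACGTGG, known for the mammalian relative of XBP-1, was at no chaperone summit and at 0.849% of all. These matches are descriptions of letters and say nothing of which factor was there.

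The plus strand at 3 of the summits with a heat shock element follows, from the same source, with the element in capitals, to show where it stands relative to the summit at the centre of each stretch.
hsp-60, chrIII:1619022-1619222: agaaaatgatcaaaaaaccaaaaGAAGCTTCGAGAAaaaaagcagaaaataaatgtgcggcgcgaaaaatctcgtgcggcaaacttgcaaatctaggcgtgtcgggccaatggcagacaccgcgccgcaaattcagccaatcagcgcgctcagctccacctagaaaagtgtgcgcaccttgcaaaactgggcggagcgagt
hsp-6, chrV:4827053-4827253: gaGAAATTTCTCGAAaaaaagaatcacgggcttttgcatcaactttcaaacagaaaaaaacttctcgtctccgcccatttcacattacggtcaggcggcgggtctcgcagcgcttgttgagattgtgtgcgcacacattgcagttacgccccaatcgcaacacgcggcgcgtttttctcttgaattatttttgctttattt
hsp-110, chrIII:8447034-8447234: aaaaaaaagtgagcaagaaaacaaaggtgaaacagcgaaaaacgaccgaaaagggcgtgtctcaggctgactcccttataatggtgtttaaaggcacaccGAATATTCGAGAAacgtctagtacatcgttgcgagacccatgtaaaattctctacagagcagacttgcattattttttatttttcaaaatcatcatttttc

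Chaperone summits often lay in the promoter windows of several genes. In 24 of 37 cases (64.9%) the summit was in the window of at least 1 other coding gene, against 20.2% of all promoter summits, and in each of these 24 an opposite-strand gene was among them. For 21 of the 33 bound members every summit was shared in this way. A member was the gene with the nearest start at 23 of the 37 summits. For the 21 members and the 23 summits, no matching share over all bound coding genes or all promoter summits is given here. These counts thus have no reference and are not shown to be particular to chaperone genes. Among the shared summits 1 of 24 had TGATAA (4.17%), against 35.7% of all shared promoter summits. Among those in a single gene's window it was 4 of 13 (30.8%), against 55.2%. All 37 summits lay upstream of the nearest start whose window held them, against 84.9% of all promoter summits, at a median distance of 207 bp against 197 bp. The dnj-24 summit counts here by the farther start of that gene. Median GC content within 100 bp was 39.3% at chaperone summits and 37.8% at all promoter summits, and 45.3% and 37.8% for those at or above the median signal.

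**Figure D4:**
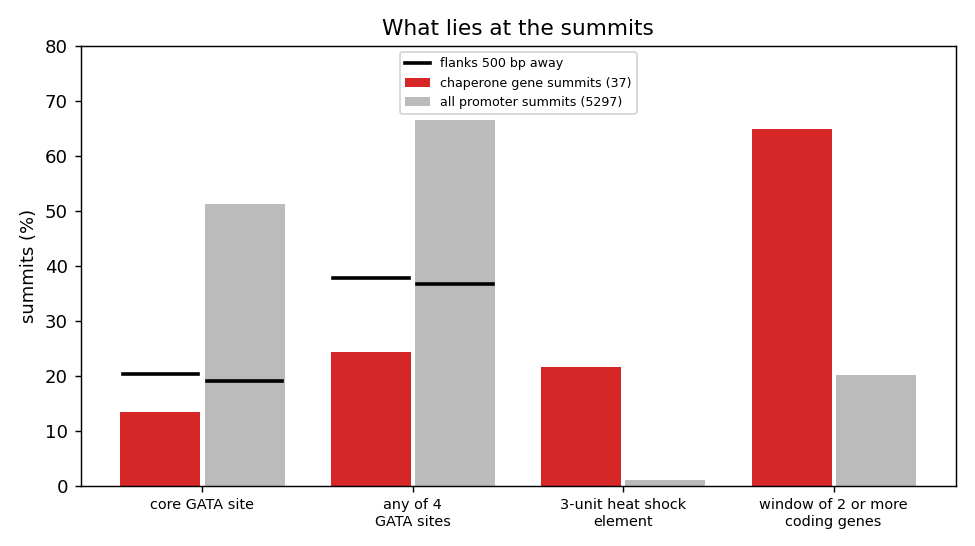
Share of summits, in percent, with the core GATA site (TGATAA), with any of 4 GATA sites or with a heat shock element of 3 units within 100 bp, and share in the window of 2 or more coding genes, for the 37 chaperone gene summits (red) and all 5297 promoter summits (grey). Black lines give the shares of the GATA sites in flanks 500 bp away. The red bars are lower for the GATA sites (13.5% against 51.3% for the core site) and higher for the heat shock element (21.6% against 1.04%) and for shared windows (64.9% against 20.2%).

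Related genes without these symbols were bound in 33 of 46 cases (71.7%), against the same 26.7% of all coding genes. The list was chosen with earlier results of these data known, so its share does not bear on that of the members. Several of its summits lay nearer to another gene, and its share by the nearest gene only is not given. In the ER folding group 8 of 10 were bound, led by stc-1, an HSP70-like ER protein (944), crt-1, calreticulin (847), and pdi-3, a disulphide isomerase (624). The summits counted to stc-1 and pdi-3 were nearer to F54C9.3 and ubql-1. Of the stress response regulators 8 of 11 were bound. The unfolded protein response factor xbp-1 led with 1330 in the pooled list, 592 in replicate 1 and 742 in replicate 2, at a summit 70 bp upstream with 1 TGATAA site. It was followed by atfs-1 of the mitochondrial response (563) and atf-6 (433), while hsf-1 was not bound.

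Co-chaperones of HSP90 and HSP70 were bound in 7 of 10 cases, led by bag-1 (409.6), sgt-1 (316) and ahsa-1 (265, nearer to C01G10.7). In prefoldin, which delivers actin and tubulin to CCT, 3 of the 5 genes counted here were bound, and these 5 need not be all its subunits. The bound genes were led by pfd-1 (590.2, at a summit nearer to F01G4.6), with pfd-6 (148.5) and pfd-3 (104, with no match in replicate 2). Mitochondrial cofactors and proteases stood at 3 of 5, with Y22D7AL.10 (640), clpp-1 (231, nearer to mdt-22) and ymel-1 (113.5). Of 5 other small HSP and HSP70 genes 4 were bound: F08H9.3 had 332, the divergent HSP70 pair F44E5.4 and F44E5.5 shared a summit of 258, and sip-1 had 175, nearer to sly-1. The summit of Y22D7AL.10 is the first one of hsp-60.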

How the data were processed

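The data are peak lists from ChIP-seq of GFP-tagged ELT-2 in 2 samples, which form 1 group. Per the labels, the authors deposited on ce11 a peak list with background for each replicate, one for the pooled replicates and a list passing IDR. Peaks were called against a control library, per the deposited text files. The sources used here do not name the peak caller, the aligner or the IDR threshold. The signal of each peak is the authors' deposited value. The deposited −log10 q was not used to rank peaks, and the deposited summit offset, added to the peak start, gave each summit. The ce10 lists were not used.

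Genes and transcript starts came from WBcel235 (Ensembl release 115) and sequence from RefSeq, the same assembly as ce11. Values were to be given in full for the 3 bound members with the strongest summit in each class and compartment, those on either side of the list's end, members sharing a peak and the 3 strongest related genes in each group; the other members' values were added after they were seen. The members and lists were chosen with earlier results of these data known. Of 47 related genes listed, 46 matched the annotation. Summits matched between lists within 100 bp. No test was run, because 1 group allows none over samples. Intervals are 95% exact (Clopper-Pearson) and cover counting error only. Work was done in Python 3.11.15 with pandas 2.3.3 and scipy 1.17.1, and the assignment of summits and sites was tested on simulated data. Alternatives were other windows, the nearest gene only, stronger peaks, each replicate alone, unshared windows, other site distances and the wider set of GATA sites.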

Additional observations from a re-analysis of the deposited data

How the results depend on the processing

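The share of chaperone genes bound ran from 49.2% without replicate 2 to 54.2% without replicate 1, from 50.8% to 59.3% over both other windows, and was 60% (33 of 55) without the 4 genes in repeated sequence, a choice made after seeing the data. It was 35.6% with the nearest gene only (22.1% of all coding genes), 27.1% with peaks at or above the median signal (14.4% of all) and 35% (7 of 20) among genes whose window overlaps no other (21.9% of all). With the nearest gene only, chaperonins stood at 33.3% and cytosolic members at 33.3%. With the stronger peaks, J proteins stood at 20.7%, chaperonins at 44.4%, ER members at 33.3% and cytosolic members at 37.5%, against 14.4% of all coding genes. Among genes whose window overlaps no other, HSP90 stood at 0% (1 gene), small HSPs at 0% (5 genes) and cytosolic members at 50% (2 genes), and no chaperonin gene was left. Small HSPs reached 5 of 13 (38.5%) with the window of 2000 bp upstream, against 32.1% of all coding genes. All other class and compartment shares stayed within their 95% interval. The share of summits with TGATAA ran from 9.09% to 24.3% over its alternatives, within its interval of 4.54 to 28.8. The median signal ran from 174.5 to 177.5. The cause of these changes was not tested. Depth is unknown, and with 2 to 29 genes per class the intervals are wide. No paired analysis was possible because both samples belong to 1 group.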
